A study of Mus musculus with 48 samples.

Results

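Endothelial cells of 6-week-old mouse skeletal muscle were compared by the presence or absence of a genetic label, in 8 of the 48 RNA-seq libraries of the series, chosen by their labels. All mice had an Abcg2CreERT allele, in which Abcg2 drives a Cre recombinase that tamoxifen activates, and a ROSATdTomato allele, a red fluorescent reporter switched on by Cre. All received 50 mg/kg tamoxifen intraperitoneally 24 h before tissue was taken. Muscle was digested with collagenase and CD31+CD45-Ter119- cells were sorted into 4 TdTomato+ samples, which the submitters call vascular endothelial stem cells, and 4 TdTomato- samples, which they call mature endothelial cells. Both fractions therefore share genotype, drug, age, tissue and gate, and the samples carry matched numbers 2, 3, 4 and 5 in both fractions. The reporter records Cre activity after tamoxifen and not the level of Abcg2 at collection. Whether each sample came from 1 animal or several is not given in the labels. The p-values therefore cover sample-to-sample spread alone, and some of that spread may be technical.

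Abcg2 encodes a membrane transporter that exports small molecules and has been used to mark stem and progenitor cells in several tissues. Blood vessel endothelium is not uniform along the vascular tree. Arterial endothelium expresses particular connexins and Notch targets, capillary endothelium of muscle is specialised for fatty acid and oxygen exchange, and postcapillary venules and veins express receptors that let leukocytes leave the blood.

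The 8 libraries held between 18334873 and 24010921 counts assigned to genes. The endothelial genes Pecam1 and Cdh5 were present in each library, Pecam1 at 2575 to 3709 CPM (the share of a library's counts on a fixed scale, adjusted between libraries by TMM) in TdTomato+ and 2121 to 3797 CPM in TdTomato- samples, and Cdh5 at 988 to 1338 CPM in TdTomato+ and 931 to 1207 CPM in TdTomato- samples. The leukocyte gene Ptprc, which encodes CD45 and was gated against, was at 0.769 to 6.22 CPM in TdTomato+ and 0.0479 to 6.09 CPM in TdTomato- samples. RNA quality and mapping measures differed between the fractions. The RNA integrity number (RIN) was 7.9, 7.3, 6.8 and 7.3 in TdTomato+ samples 2, 3, 4 and 5, against 9.2, 10, 9.4 and 9.2 in their TdTomato- partners, with no overlap. Mitochondrial reads made up 0.373 to 0.530% of reads in TdTomato+ and 0.747 to 1.38% in TdTomato- libraries. Both were lower in TdTomato+ in 4 of 4 pairs. The log2 fold change of a gene also rose with its annotated length, with a Spearman correlation of 0.41 across 12891 genes that share these libraries and are not independent replicates. With genes split by length into 5 groups of equal size, the median log2 fold change was -0.20 in the group of shortest genes and 0.17 in the group of longest genes. The part of RIN, mitochondrial share and length in the results below was not tested, and list counts with the length trend removed are given beside those of the fit where they differ.

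**Figure D1:**
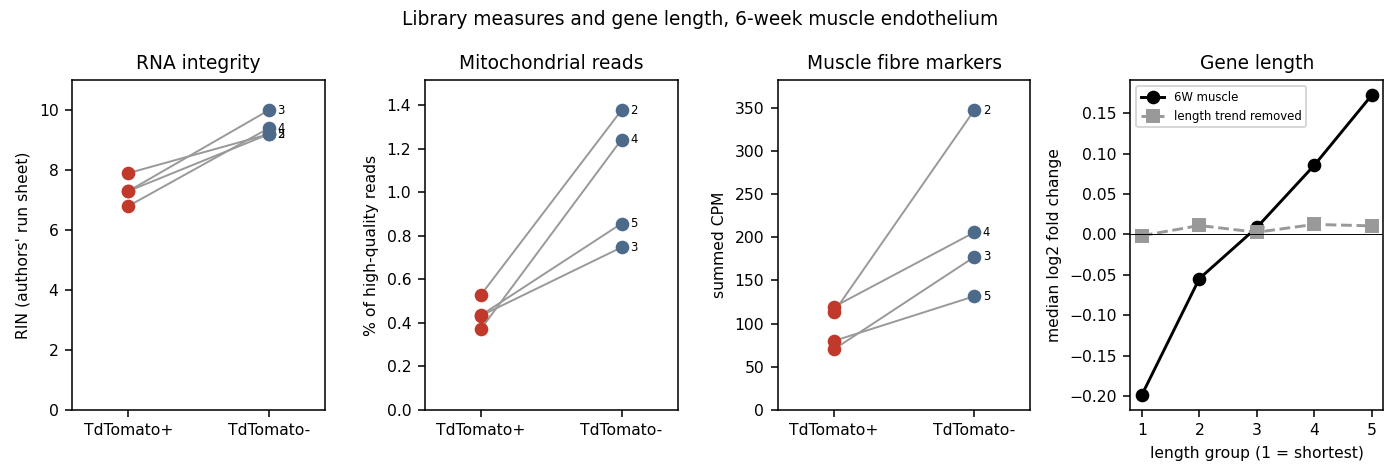
RNA integrity number, mitochondrial reads (% of high-quality reads) and summed CPM of the muscle fibre marker list in each TdTomato+ and TdTomato- sample, with lines joining matched numbers, and the median log2 fold change in 5 equal groups of genes by length (circles: as fitted, squares: length trend removed). All 3 sample measures are lower in TdTomato+ in 4 of 4 pairs, and the median log2 fold change runs between -0.20 and 0.17 across the length groups.

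Abcg2 (chr6:58596672-58692451, mm10, plus strand), the gene whose control region drives Cre, was examined first. It had 259, 290.2, 295 and 336 CPM in TdTomato+ samples 2, 3, 4 and 5, against 219, 235, 239 and 319.9 CPM in TdTomato- samples. The TdTomato+ value was higher in 4 of 4 pairs, while the ranges of the fractions overlapped. Means were 295 ± 31.7 CPM in TdTomato+ and 253 ± 45.3 CPM in TdTomato- (SD, n = 4 each), a log2 fold change of 0.23 ± 0.07 (SE) that did not pass the threshold (edgeR quasi-likelihood test, Benjamini-Hochberg adjusted p = 0.0636). In the other tissue and age combinations of the series, the same fit gave Abcg2 a log2 fold change of 0.38 in P6 muscle (edgeR adjusted p = 0.0112), 0.47 in P1 lung (0.0337), 0.25 in 6-week heart (0.312) and 0.02 in P1 heart (0.952). In 6-week muscle, Abcg2 passed with genes under a mean of 10 CPM left out (edgeR adjusted p = 0.0366) and with DESeq2 (adjusted p = 0.0118). It did not pass in any other setting tried. The edgeR adjusted p was 0.560 without pairing the samples, 0.195 in a joint fit of 46 libraries and 0.0627 with the length trend removed. It was 0.994 with RIN as a covariate, and 0.111, 0.257, 0.172 and 0.0611 without pairs 2, 3, 4 and 5. Both fractions contained Abcg2 RNA at 6 weeks, and the fitted ratio was 1.17-fold.

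Of 12891 genes tested, 1101 (8.54%) were called at an adjusted p below 0.05: 434 (3.37%) were higher in TdTomato+ and 667 (5.17%) lower. The median log2 fold change over all genes was 0.01, with quartiles of -0.19 and 0.19. Only 63 of the higher and 84 of the lower calls reached a 2-fold change. The direction was the same in 4 of 4 pairs for 429 of the 434 rises and 666 of the 667 falls, against 4098 of all 12891 genes tested. The calls were made on these same pairs, so their shared direction is no independent check. Ranges of CPM did not overlap between fractions for 167 of the rises and 356 of the falls, against 998 (7.74%) of all genes tested, 348 (2.7%) higher and 650 (5.04%) lower. The count depended on single pairs: it was 850 without pair 2, 262 without pair 3, 454 without pair 4 and 684 without pair 5. With RIN as a covariate beside the pair, which leaves 2 residual degrees of freedom, 1 gene passed (Clu, lower in TdTomato+). With the length trend removed, 577 genes (4.48%) passed, 236 (1.83%) higher and 341 (2.65%) lower in TdTomato+, of which 512 were called in the same direction without that step. Where a list count moved by more than 1.5 times with 1 pair left out, the counts without pairs 2, 3, 4 and 5 are given in that order. The gene lists and their members were chosen with earlier results of these data known. A list count is therefore a description and no independent test.

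Many genes of arterial endothelium were lower in TdTomato+ cells. Of 24 arterial genes tested, 13 fell, 1 rose (Nrp1, a semaphorin and VEGF co-receptor, log2 fold change 0.29, edgeR adjusted p = 0.0227, not called with the length trend removed or without pair 3 or 4) and 10 did not pass, and the list's median log2 fold change was -0.80, beside 0.01 over all genes. The same number, 13, fell with the length trend removed, between 12 and 16 fell with any 1 pair left out, and 9 fell without pairing the samples. Over all genes as fitted, 5.17% fell and 3.37% rose. In summed CPM the arterial list was at 5883 to 8130 in TdTomato+ and 6852 to 9499.5 in TdTomato- libraries. These ranges overlapped, and the sum was lower in TdTomato+ in 3 of 4 pairs and higher in 1. As the samples are bulk, fewer cells of a type and less RNA per cell cannot be told apart.

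The pair of gap junction connexins found in arterial endothelium both fell. Gja5 (chr3:97032402-97053634, plus strand) had 19.2, 29.9, 38.5 and 33.6 CPM in TdTomato+ samples 2, 3, 4 and 5, against 116, 246, 223 and 150.3 CPM in TdTomato- samples. Each TdTomato+ library lay below each TdTomato- library. The means were 30.3 ± 8.19 CPM in TdTomato+ and 184 ± 61.1 CPM in TdTomato- samples (SD, n = 4 each), and the log2 fold change was -2.58 ± 0.13 (SE), a 5.98-fold decrease in TdTomato+ (edgeR adjusted p = 2.72e-05). Gja4 (chr4:127311420-127314039, minus strand) had 24.8, 33.5, 26.0 and 20.6 CPM in TdTomato+, against 88.8, 139, 148 and 61.6 CPM in TdTomato- samples. The ranges again did not overlap, and the log2 fold change was -2.0 ± 0.14 (edgeR adjusted p = 8.8e-05). Gja1, a connexin with wider expression, fell less, by 0.48 on the log2 scale (edgeR adjusted p = 0.0033).

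Hey1, a transcriptional repressor induced by Notch, had 80.7, 64.5, 63.3 and 85.5 CPM in TdTomato+ samples, against 181, 170.0, 179 and 187 CPM in TdTomato- samples. Its values were close together within each fraction and did not overlap, with a log2 fold change of -1.30 ± 0.08 (edgeR adjusted p = 6.92e-05). Fbln5 (chr12:101746565-101819119, minus strand), an elastic fibre component, had 113, 120.2, 107 and 109.9 CPM in TdTomato+, against 355, 541, 459 and 307 CPM in TdTomato- samples. The 4 TdTomato+ values spanned a narrow range far below the TdTomato- values, with a log2 fold change of -1.85 ± 0.11 (edgeR adjusted p = 6.47e-05). Stmn2, a microtubule-binding protein, was at 18.3 to 28.0 CPM in TdTomato+ and 45.7 to 96.5 CPM in TdTomato- samples, a fall of 3.09-fold (edgeR adjusted p = 0.000328).

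Other arterial genes, described after their values were seen, moved the same way. Gkn3 was nearly absent from TdTomato+ samples, at 0.220 to 2.102 CPM, against 5.03 to 18.3 CPM in TdTomato- samples, and its fall of 3.67 on the log2 scale was the largest in the list (edgeR adjusted p = 0.000192). Bmx, a cytoplasmic tyrosine kinase used as an arterial marker, was at 0.495 to 5.00 CPM in TdTomato+ and 6.17 to 17.6 CPM in TdTomato- samples (log2 fold change -2.25, edgeR adjusted p = 0.00600). Alox12, Sema3g and Tm4sf1 fell by 1.56, 1.26 and 0.96 on the log2 scale, and in each the ranges of the fractions did not overlap. Edn1, which encodes the vasoconstrictor precursor of endothelin, was at 21.3 to 43.3 CPM in TdTomato+ and 50.7 to 74.9 CPM in TdTomato- samples (log2 fold change -0.96, edgeR adjusted p = 0.00131). The members that did not pass included Efnb2, the ephrin ligand that marks arterial identity in the embryo (log2 fold change -0.29, edgeR adjusted p = 0.0865), Dll4, a Notch ligand (-0.32, 0.0661), Notch1 (0.08, 0.643) and Sox17, a transcription factor of arterial endothelium (-0.11, 0.391).

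Genes of venous and postcapillary endothelium were higher in TdTomato+ cells. Of 20 tested, 16 rose, beside 3.37% of all genes, none fell by edgeR or DESeq2 (0 at an unadjusted p under 0.05), and the median log2 fold change was 0.92. The count was again 16 with the length trend removed, although Nr2f2 was then not called (edgeR adjusted p = 0.0885), and 14 to 16 rose with any 1 pair left out, but only 3 were called when the samples were not paired. In summed CPM the list was at 4609.5 to 7828 in TdTomato+ and 2851 to 4116 in TdTomato- libraries, with no overlap.

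Selp (chr1:164115264-164150026, plus strand) encodes P-selectin, on which leukocytes roll. It had 22.3, 98.6, 120.0 and 62.6 CPM in TdTomato+ samples 2, 3, 4 and 5, against 6.26, 30.2, 20.6 and 16.6 CPM in TdTomato- samples. Pair 2 was lowest in both fractions, so the ranges overlapped although TdTomato+ was higher in each pair, and the log2 fold change was 2.01 ± 0.14 (edgeR adjusted p = 8.8e-05). Lrg1 (chr17:56119678-56121946, minus strand), a secreted glycoprotein of venular endothelium, had 226, 468, 513 and 339 CPM in TdTomato+, against 101, 149.97, 134 and 120.3 CPM in TdTomato- samples. Its ranges did not overlap, with means of 386 ± 129.8 CPM in TdTomato+ and 126 ± 20.9 CPM in TdTomato- samples (SD, n = 4 each) and a log2 fold change of 1.56 ± 0.11 (edgeR adjusted p = 8.8e-05).

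Plvap (chr8:71497753-71511769), which forms the diaphragms of fenestrae and caveolae, had 681, 2423, 2307 and 1185 CPM in TdTomato+, against 333, 702, 658 and 400.2 CPM in TdTomato- samples. Samples 3 and 4 were high and samples 2 and 5 low in both fractions, so the ranges overlapped while TdTomato+ was higher in each pair, and the fit gave 2.93-fold (log2 1.55 ± 0.12, edgeR adjusted p = 0.000117). Ackr1 (chr1:173331886-173333503), the chemokine-binding receptor of venules, had 8.02, 44.8, 75.1 and 28.0 CPM in TdTomato+, against 4.33, 26.13, 18.5 and 6.46 CPM in TdTomato- samples, with overlapping ranges and a log2 fold change of 1.47 ± 0.23 (edgeR adjusted p = 0.00549). Vwf, the clotting glycoprotein stored with P-selectin, was at 281, 587, 666 and 518 CPM in TdTomato+, against 109.6, 297, 277 and 306 CPM in TdTomato- samples, a 2.13-fold rise (edgeR adjusted p = 0.000317). The leukotriene receptor gene Cysltr1 rose 2.73-fold and the adhesion receptor gene Vcam1 2.01-fold. Nr2f2, the transcription factor that specifies venous identity, was at 22.3 to 33.8 CPM in TdTomato+ and 16.6 to 26.5 CPM in TdTomato- samples (log2 fold change 0.52, edgeR adjusted p = 0.0294). Ephb4, the venous receptor for ephrin B ligands, was at 768 to 891 CPM in TdTomato+ and 499.6 to 738 CPM in TdTomato- samples, with no overlap (log2 fold change 0.45, edgeR adjusted p = 0.0115). Both were described after their values were seen, and Nr2f2 lost its call without pair 3, 4 or 5 and Ephb4 without pair 4. Sele, the gene for E-selectin, had 0.604 to 3.27 CPM in TdTomato+ and 0 to 1.12 CPM in TdTomato- samples and did not pass (edgeR adjusted p = 0.0590).

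**Figure D2:**
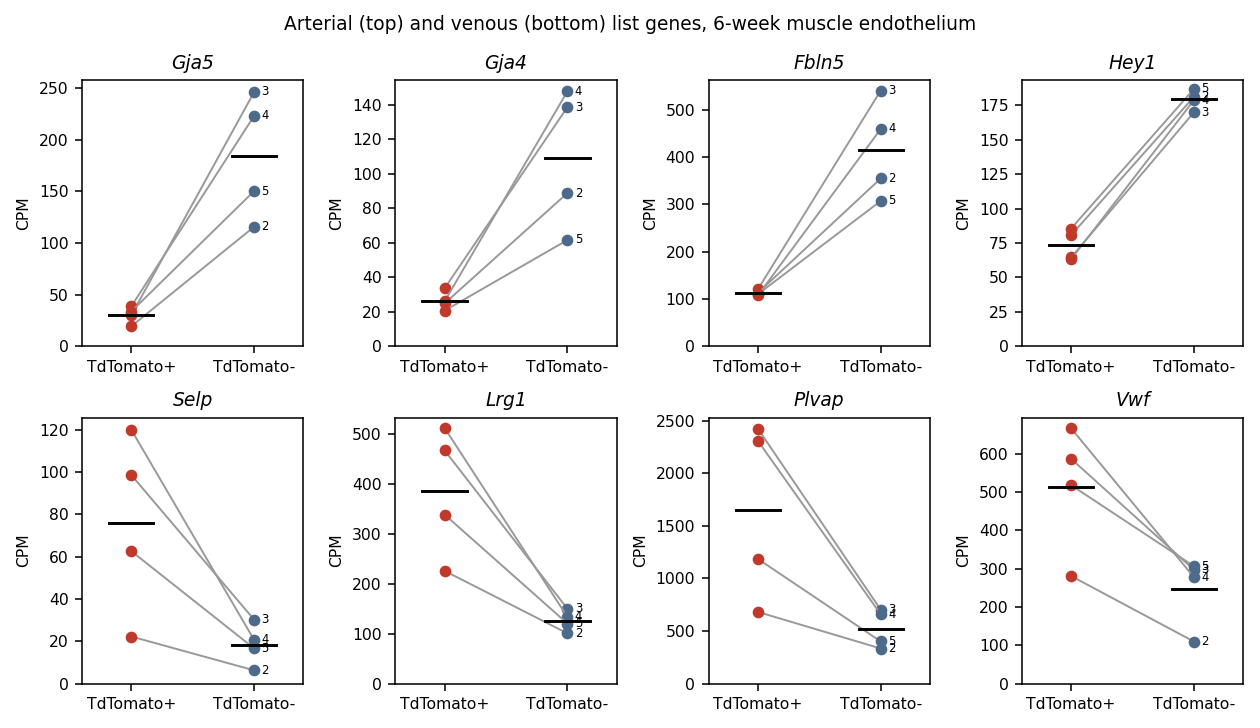
CPM of 4 arterial list genes (Gja5, Gja4, Fbln5 and Hey1) and 4 venous list genes (Selp, Lrg1, Plvap and Vwf) in each TdTomato+ and TdTomato- sample of 6-week muscle, with lines joining matched numbers and a black bar at each mean. In each of the 4 pairs the arterial genes are lower and the venous genes higher in TdTomato+, and the fractions do not overlap for Gja5, Gja4, Fbln5, Hey1 and Lrg1.

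The 250 bases upstream of the start of 2 arterial genes that fell and 2 venous genes that rose are shown because these genes moved in opposite directions in the same pairs. They are credited to RefSeq on GRCm38.p6 and are given 5′ to 3′ on the gene's own strand. The windows are chr3:97032152-97032401 (plus) for Gja5, chr4:127314040-127314289 (minus) for Gja4, chr1:164115014-164115263 (plus) for Selp and chr17:56121947-56122196 (minus) for Lrg1. Capitals mark matches, on either strand, to TGGGAA (the core of sites bound by the Notch effector RBPJ), AGGTCA (the half-site of nuclear receptors such as the product of Nr2f2) or ACAAT (a core of SOX factor sites).
Gja5: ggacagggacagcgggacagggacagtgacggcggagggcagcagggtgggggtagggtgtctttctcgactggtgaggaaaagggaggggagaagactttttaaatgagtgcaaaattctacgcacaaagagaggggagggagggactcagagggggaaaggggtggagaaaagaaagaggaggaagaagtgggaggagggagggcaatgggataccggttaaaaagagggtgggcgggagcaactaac
Gja4: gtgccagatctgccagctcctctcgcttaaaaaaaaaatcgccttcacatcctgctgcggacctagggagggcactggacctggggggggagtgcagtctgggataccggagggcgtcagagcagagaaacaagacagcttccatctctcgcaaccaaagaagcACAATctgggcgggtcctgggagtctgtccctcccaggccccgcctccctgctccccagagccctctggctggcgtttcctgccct
Selp: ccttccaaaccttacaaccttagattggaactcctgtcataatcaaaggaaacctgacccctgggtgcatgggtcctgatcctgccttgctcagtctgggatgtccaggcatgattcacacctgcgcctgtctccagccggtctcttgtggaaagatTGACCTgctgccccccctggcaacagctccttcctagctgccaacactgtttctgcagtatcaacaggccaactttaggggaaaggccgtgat
Lrg1: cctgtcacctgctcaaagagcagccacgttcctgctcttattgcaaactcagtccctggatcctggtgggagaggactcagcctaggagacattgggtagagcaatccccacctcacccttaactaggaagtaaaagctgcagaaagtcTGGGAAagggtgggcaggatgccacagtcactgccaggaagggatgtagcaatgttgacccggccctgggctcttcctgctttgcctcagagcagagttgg
None of these motifs contains another on either strand. The Gja5 window held no match, that of Gja4 held ACAAT at base 165, that of Selp held AGGTCA, read on the opposite strand, at base 158, and that of Lrg1 held TGGGAA at base 150. Among the arterial genes that fell, 10 of 13 matched the promoter table, in 11 windows, and among the venous genes that rose, 12 of 16 matched, in 13 windows. TGGGAA was present in 3 of 11 arterial windows, 3 of 13 venous windows and 21.6% of all 32851 windows of the table. AGGTCA was present in 0 of 11, 3 of 13 and 14% in that order, and ACAAT in 3 of 11, 1 of 13 and 27.7%. A match is a description of letters in the window and no evidence of binding.

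Capillary genes moved less, and their counts stand beside 5.17% of all genes that fell and 3.37% that rose. Of 19 tested, 9 fell and 2 rose, with a median log2 fold change of -0.21, and 3 fell and 1 rose with the length trend removed. The falls numbered 11, 4, 4 and 8 and the rises 2, 1, 2 and 1 without pairs 2, 3, 4 and 5. Rbp7, a retinol-binding protein of capillary endothelium in fat and muscle, was at 254, 197, 153 and 174 CPM in TdTomato+, against 692, 478, 462 and 318 CPM in TdTomato- samples. The ranges did not overlap, and the log2 fold change was -1.30 ± 0.11 (edgeR adjusted p = 0.000192). Cd36, the fatty acid translocase, was at 10451, 8875, 7812 and 10719 CPM in TdTomato+, against 12665, 11704, 9749 and 13104 CPM in TdTomato- samples, a fall of 0.32 on the log2 scale in 4 of 4 pairs (edgeR adjusted p = 0.00322). Gpihbp1, which carries lipoprotein lipase to the capillary lumen, and Car4, a membrane carbonic anhydrase, fell by 0.33 and 0.41 on the log2 scale. Aplnr, the apelin receptor, was the main member that rose, with 1584, 1574, 1658 and 908 CPM in TdTomato+, against 926, 1201, 1067 and 618 CPM in TdTomato- samples (log2 fold change 0.59, edgeR adjusted p = 0.00162).

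**Figure D3:**
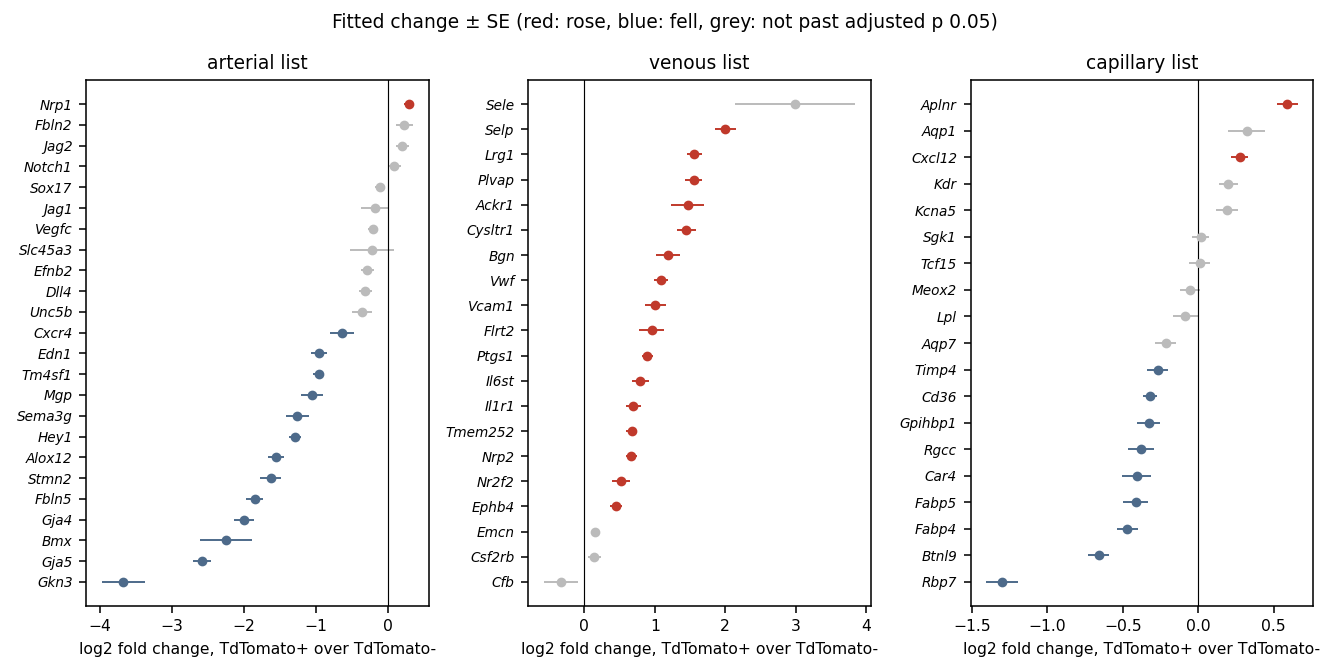
Fitted log2 fold change, TdTomato+ over TdTomato-, with its SE for each tested gene of the arterial, venous and capillary lists (red: rose, blue: fell, grey: did not pass adjusted p 0.05). Of the arterial genes 13 lie below 0 in blue, of the venous genes 16 lie above 0 in red, and the capillary genes lie mostly within 1 log2 unit of 0.

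Among the 10 largest rises by the naming rule, Nt5e, Selp, Col1a1, Lrg1, Plvap, Ackr1, Slc7a5, Cysltr1, Col13a1 and Hrh1, 5 belong to the venous list. Nt5e (chr9:88327609-88372089) encodes the ecto-nucleotidase CD73, which makes adenosine from AMP. It had 8.46, 17.2, 27.5 and 33.06 CPM in TdTomato+, against 2.37, 4.13, 4.61 and 5.41 CPM in TdTomato- samples. The ranges did not overlap, and the log2 fold change of 2.29 ± 0.19 was the largest of the rises named by that rule (edgeR adjusted p = 0.000220). Col1a1 (chr11:94936270-94951856), a fibrillar collagen chain, had 20.11, 20.8, 28.7 and 25.0 CPM in TdTomato+, against 6.50, 4.41, 16.9 and 1.82 CPM in TdTomato- samples. Its log2 fold change was 2.00 ± 0.38 (edgeR adjusted p = 0.0121), and it lost its call without pair 3 (0.0760). Slc7a5, the large neutral amino acid transporter, had 14.0, 21.6, 37.3 and 10.9 CPM in TdTomato+, against 7.07, 7.71, 7.11 and 5.75 CPM in TdTomato- samples, a 2.74-fold rise (edgeR adjusted p = 0.00713) that also lost its call without pair 3 (0.0519). The histamine receptor gene Hrh1 rose 2.63-fold.

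Among the 10 largest falls, Gper1, Gja5, Tmem178, Gja4, Col8a1, Aif1l, Fbln5, Slc45a4, Ckm and Stmn2, 4 belong to the arterial list. Gper1 (chr5:139423179-139427800), a G protein-coupled receptor that responds to oestrogen, had 5.99, 5.29, 8.83 and 9.22 CPM in TdTomato+, against 30.2, 51.2, 46.4 and 58.6 CPM in TdTomato- samples. Its fall of 6.33-fold, with no overlap, was the largest of those 10 (log2 fold change -2.66 ± 0.17, edgeR adjusted p = 6.47e-05). Tmem178, a transmembrane protein of the endoplasmic reticulum, had 5.33, 2.76, 1.78 and 6.31 CPM in TdTomato+, against 17.9, 20.3, 17.08 and 15.13 CPM in TdTomato- samples (log2 fold change -2.24 ± 0.32, edgeR adjusted p = 0.00345). Col8a1, a short-chain collagen of vessel walls, had 43.4, 39.1, 27.9 and 44.3 CPM in TdTomato+, against 103, 202, 190.5 and 135 CPM in TdTomato- samples (log2 fold change -2.0 ± 0.21, edgeR adjusted p = 0.000890). None of these 3 genes overlapped between the fractions. Aif1l and Slc45a4 fell by 1.88 and 1.72 on the log2 scale, also without overlap.

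Matrix genes were split in direction, beside 3.37% of all genes that rose and 5.17% that fell. Of 19 collagen genes tested, 5 rose and 2 fell, with 4 and 2 after removal of the length trend. Without pairs 2, 3, 4 and 5 the rises numbered 8, 2, 6 and 4 and the falls 1 each time. Besides Col1a1, Col13a1, a membrane collagen, rose 2.70-fold, Col5a1 by 1.16 and Col15a1, which lost its call without pair 3, by 0.86 on the log2 scale. Of 19 basement membrane genes 5 rose and 2 fell (2 and 1 with the length trend removed), with 5, 1, 4 and 3 rises and 1 fall each time without pairs 2, 3, 4 and 5. Hspg2, the heparan sulphate proteoglycan perlecan, was at 362, 526, 377 and 424 CPM in TdTomato+, against 173, 299, 298 and 278 CPM in TdTomato- samples, without overlap (log2 fold change 0.71, edgeR adjusted p = 0.00398). Fn1, fibronectin, went the other way, with 26.102, 45.4, 34.9 and 28.5 CPM in TdTomato+, against 52.3, 149, 109 and 75.6 CPM in TdTomato- samples, a fall of 2.73-fold (edgeR adjusted p = 0.000215).

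Transport and lipid genes included members that rose, beside 3.37% of all genes that rose and 5.17% that fell. Of 18 solute transporters, 4 rose and none fell by edgeR or DESeq2 (0 at an unadjusted p under 0.05), also with the length trend removed, though 1 rose without pair 3. They were Slc7a5, its heavy chain partner Slc3a2 (log2 fold change 0.30), the glutamine transporter gene Slc38a2 (0.44) and the monocarboxylate transporter gene Slc16a1 (0.63). Of 25 genes of lipid uptake and use, 6 rose and 6 fell, or 3 and 1 with the length trend removed. Without pairs 2, 3, 4 and 5 the rises numbered 3, 1, 3 and 3 and the falls 6, 2, 2 and 4. The falls included Cd36, Gpihbp1 and Fabp4, a fatty acid chaperone that was not called with the length trend removed. The rises included Slc27a3, an acyl-CoA synthetase of the fatty acid transport family, with 113, 117, 129.8 and 82.5 CPM in TdTomato+, against 46.8, 62.6, 68.0 and 58.4 CPM in TdTomato- samples (log2 fold change 0.90, no overlap, edgeR adjusted p = 0.00244), and Scarb1, a lipoprotein receptor (0.32, 0.00825). Of 21 ABC transporters, which include Abcg2, 1 rose (Abca1, a cholesterol exporter, 0.37), which was not called with the length trend removed or in any fit with 1 pair left out.

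Some respiratory chain and interferon-induced genes were lower in TdTomato+, beside 5.17% of all genes that fell. Of 30 genes of oxidative phosphorylation, 14 fell and none rose by edgeR or DESeq2 (0 at an unadjusted p under 0.05), with a median log2 fold change of -0.31. The transcripts of this list are short, with a median length of 1126 nucleotides, and 4 fell with a median of -0.08 once the length trend was removed. The falls numbered 5 without pair 3 and 8 without pair 4. Cox7a2, a subunit of cytochrome oxidase, had 85.9, 91.5, 80.7 and 69.2 CPM in TdTomato+, against 122, 144, 157 and 102 CPM in TdTomato- samples, without overlap (log2 fold change -0.67, edgeR adjusted p = 0.00295). These genes are of the nucleus, and the mitochondrial share of reads was lower in TdTomato+ in the same pairs.

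Of 31 interferon response genes, 10 fell, beside 5.17% of all genes, and none rose by edgeR or DESeq2 (0 at an unadjusted p under 0.05). The median was -0.21, and 8 fell with the length trend removed. The falls numbered 3 without pair 3, 4 without pair 4 and 4 without pair 5. Isg15, a ubiquitin-like modifier, had 40.1, 30.4, 27.3 and 26.2 CPM in TdTomato+, against 60.6, 49.9, 59.2 and 43.1 CPM in TdTomato- samples, without overlap (log2 fold change -0.79, edgeR adjusted p = 0.00343). Oas1a, an antiviral enzyme, and Rtp4 fell by 0.84 and 0.53 on the log2 scale. Of 14 MHC class I genes, 2 fell, the immunoproteasome subunits Psmb8 and Psmb9, neither of which passed with the length trend removed or without pair 3, nor Psmb9 without pair 4. Of 9 MHC class II genes none passed edgeR or DESeq2 and 0 had an unadjusted p under 0.05.

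Signalling lists held calls in both directions, beside the 8.54% of all genes that were called. In the Notch list, 3 of 20 rose and 1, Hey1, fell (2 and 1 with the length trend removed), and without pairs 2, 3, 4 and 5 the rises numbered 3, 1, 1 and 3 and the falls 3, 1, 1 and 1. Lfng, the glycosyltransferase that modifies Notch receptors, had 112, 64.3, 72.7 and 70.3 CPM in TdTomato+, against 54.8, 27.7, 30.0 and 47.8 CPM in TdTomato- samples, without overlap (log2 fold change 1.02, edgeR adjusted p = 0.00195). The ligand gene Dll1 rose by 0.51 and lost its call without pair 3 or 4. In the BMP and TGF-beta list, 4 of 24 rose and 2 fell, with 3, 1, 3 and 3 rises and 2, 1, 1 and 1 falls without pairs 2, 3, 4 and 5. The co-receptor gene Eng was at 1436 to 1698 CPM in TdTomato+ and 1105 to 1309 CPM in TdTomato- samples (log2 fold change 0.33, edgeR adjusted p = 0.00921), lost its call without pair 3, and has exons that overlap those of Fpgs in the annotation. Tgfbr3, another co-receptor, rose by 0.62 and the ligand gene Tgfb2 fell by 1.03. Of 19 VEGF and angiopoietin genes, 3 rose (Nrp1, Nrp2 and Aplnr) and 1 fell (Angptl4), or 2 and 1 with the length trend removed. Without pair 3 or 4 Nrp1 lost its call, as did Angptl4 without pair 3, and the falls numbered 2, 0, 1 and 1 without pairs 2, 3, 4 and 5. Of 19 junction proteins, 5 fell, among them Gja5, Gja4, Gja1 and the tight junction gene Cldn5 (by 0.43, call lost without pair 3), and 1 rose (5 and 0 with the length trend removed). Their falls numbered 6, 3, 4 and 4 and their rises 1, 0, 0 and 1 without pairs 2, 3, 4 and 5. Of 20 genes of endothelium in general, 4 rose and 3 fell (4 and 1 with the length trend removed), with 4, 1, 3 and 4 rises and 3, 0, 1 and 2 falls without pairs 2, 3, 4 and 5.

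Of 18 genes that have been proposed as marks of endothelial progenitors, 3 rose, 1 fell and 14 did not pass, beside 8.54% called over all genes, with a median log2 fold change of 0.21. With the length trend removed 2 rose and 1 fell, and without pairs 2, 3, 4 and 5 the rises numbered 3, 0, 1 and 0 and the falls 1, 0, 0 and 0. The sialomucin gene Cd34 was at 1319 to 1749 CPM in TdTomato+ and 922 to 1459 CPM in TdTomato- samples (log2 fold change 0.29, edgeR adjusted p = 0.0246), and Myc rose by 0.60 without overlap. Prom1, which encodes CD133, was at 121 to 264 CPM in TdTomato+ and 132 to 374 CPM in TdTomato- samples and fell by 0.42 (edgeR adjusted p = 0.0158). Each of these 3 lost its call without pair 3, without pair 4 and without pair 5. Of 22 S phase genes none passed edgeR or DESeq2, with 2 at an unadjusted p under 0.05. Of 19 G2/M genes 1 fell, with a median log2 fold change of -0.82 over the list and 17 of the 19 below 0. The gene that fell was Ccnb2, at 0 to 2.01 CPM in TdTomato+ and 0.286 to 5.19 CPM in TdTomato- samples. It was not called with the length trend removed or in any fit with 1 pair left out. In the joint fit of 46 libraries 6 G2/M genes fell. Tip cell genes gave 3 rises and 3 falls of 20 (2 and 1 with the length trend removed), with 3, 0, 2 and 0 rises and 5, 0, 0 and 2 falls without pairs 2, 3, 4 and 5. Genes of shear stress and nitric oxide gave 3 rises and 2 falls of 16 (1 and 2 with the length trend removed), with 1, 1, 2 and 2 rises without pairs 2, 3, 4 and 5. Among them the prostaglandin carrier Slco2a1 rose 2.38-fold.

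Immediate early genes are transcribed quickly after a stimulus. Of 30 tested, 7 rose, beside 3.37% of all genes, and none fell by edgeR or DESeq2 (0 at an unadjusted p under 0.05), with a median log2 fold change of 0.22. The rises numbered 6 with the length trend removed, and 12, 2, 3 and 3 without pairs 2, 3, 4 and 5. Ctgf had 67.9, 107, 105 and 138 CPM in TdTomato+, against 45.1, 48.3, 41.6 and 80.7 CPM in TdTomato- samples (1.94-fold, edgeR adjusted p = 0.00229), and Fosl2 had 35.3 to 47.4 CPM in TdTomato+ and 16.0 to 33.8 CPM in TdTomato- samples (edgeR adjusted p = 0.00617).

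Counts in the remaining lists were small, and some were near the 8.54% of all genes that were called. They moved with single pairs, and the counts without pairs 2, 3, 4 and 5 follow in that order. Heat shock gave 2 rises of 16 (4, 0, 0 and 0), with 2 rises and 1 fall once the length trend was removed. Adhesion molecules and addressins gave 4 rises and 2 falls of 16, with falls of 2, 0, 0 and 1, and 4 and 1 with the length trend removed. Chemokines and their receptors gave 3 rises (3, 1, 3 and 1) and 3 falls (3, 0, 0 and 0) of 15, and 2 of each with the length trend removed. Coagulation gave 1 rise and 2 falls of 17 (falls of 2, 1, 2 and 2), and 1 of each with the length trend removed. Glycolysis and hypoxia gave 1 rise (2, 0, 1 and 2) and 2 falls (2, 0, 1 and 1) of 25, and 1 of each with the length trend removed. Glucocorticoid response gave 2 rises (3, 0, 0 and 2) and 1 fall (1, 0, 0 and 1) of 20. The circadian clock gave 2 rises of 19 (2, 0, 1 and 2), and 1 with the length trend removed. Cholesterol synthesis gave 1 fall of 19, which was lost with each pair left out and with the length trend removed. Lymphatic genes gave 1 rise (1, 0, 1 and 1) and 1 fall (1, 0, 0 and 1) of 12, and the rise but no fall was called with the length trend removed.

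**Figure D4:**
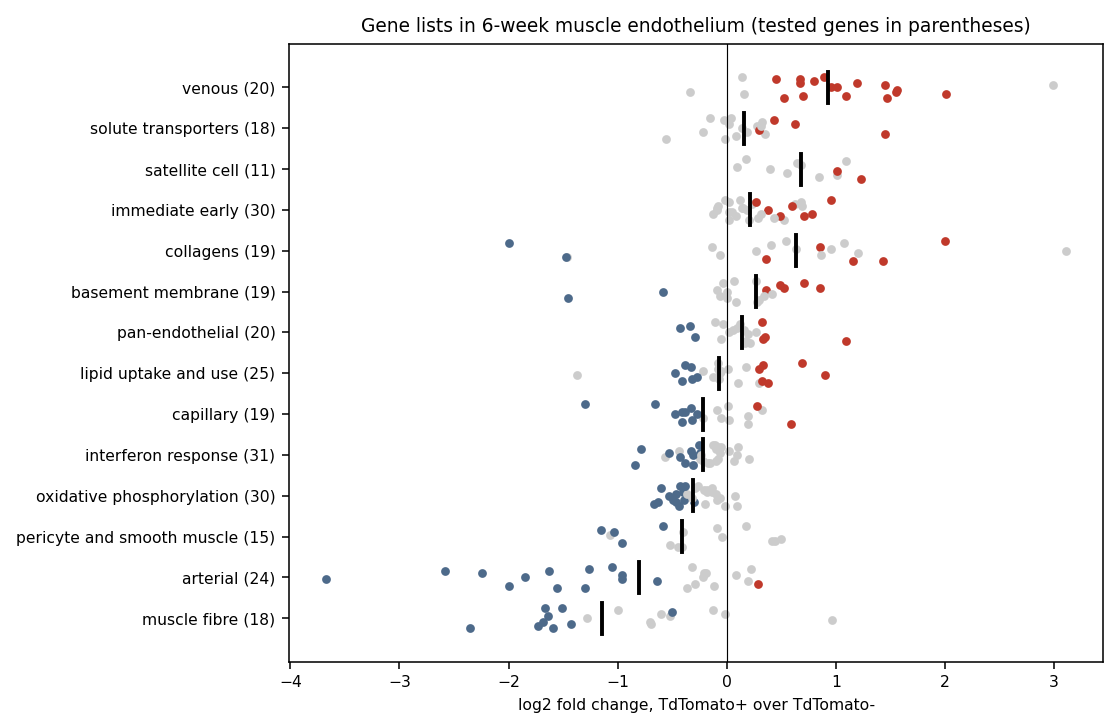
Log2 fold change, TdTomato+ over TdTomato-, of each tested gene (points; red: rose, blue: fell, grey: did not pass) and the median (black bar) of 14 gene lists, with the number of tested genes in parentheses. Of the 14 lists drawn, the venous list has a median of 0.92, the arterial list -0.80 and the muscle fibre list -1.14. Lists not drawn include tendon markers, with a median of 1.23 over 6 genes, Schwann and nerve markers, with -1.20 over 8 genes, and G2/M genes, with -0.82 over 19 genes.

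Markers of other cells of muscle also differed, beside 5.17% of all genes that fell and 3.37% that rose. Of 18 muscle fibre genes tested, 9 fell (7 with the length trend removed, 3 without pair 3), with a median log2 fold change of -1.14, and their summed level was 70.1 to 119 CPM in TdTomato+ and 132 to 347 CPM in TdTomato- libraries. The skeletal actin gene Acta1 had 24.7, 15.3, 29.7 and 18.2 CPM in TdTomato+, against 106, 58.0, 74.5 and 37.1 CPM in TdTomato- samples (log2 fold change -1.60, edgeR adjusted p = 0.000890). Ckm, the muscle creatine kinase gene and 1 of the 10 largest falls, had 2.99 to 7.76 CPM in TdTomato+ and 12.2 to 35.3 CPM in TdTomato- samples and lost its call without pair 3. Of the defining fibre markers, Myh1 was at 0 to 4.01 CPM in TdTomato+ and 0.492 to 2.15 CPM in TdTomato- samples.

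Of 15 pericyte and smooth muscle markers, 4 fell, among them Rgs5 (6.62 to 46.4 CPM in TdTomato+ and 30.6 to 71.1 CPM in TdTomato- samples), or 1 with the length trend removed and 2, 0, 1 and 2 without pairs 2, 3, 4 and 5. Rgs5 was not called with the length trend removed or without pair 3 or 4. The summed level was 419.9 to 514 CPM in TdTomato+ and 485 to 620 CPM in TdTomato- libraries. Of 14 fibroblast markers, 1 rose, which was Col1a1, with 2, 0, 2 and 1 without pairs 2, 3, 4 and 5, and their summed level was 384 to 772 CPM in TdTomato+ and 236 to 649.8 CPM in TdTomato- libraries. Of 11 satellite cell markers, 2 rose (Vcam1, which is also on the venous list, and Calcr), or 1 with the length trend removed and 6, 1, 1 and 1 without pairs 2, 3, 4 and 5. All 11 had a log2 fold change above 0, with a median of 0.68, and 4 rose by DESeq2. Calcr was called in 1 of the 4 fits with a pair left out. The summed level was 204 to 537 CPM in TdTomato+ and 129 to 359.5 CPM in TdTomato- libraries. Pax7, the defining gene of those muscle stem cells, was at 1.22 to 7.01 CPM in TdTomato+ and 0.623 to 4.38 CPM in TdTomato- samples. Of 6 tested adipocyte markers 3 fell, Fabp4, Pparg and Car3, but 0 by edgeR with the length trend removed (adjusted p between 0.0709 and 0.0852) and 1, 1, 2 and 1 without pairs 2, 3, 4 and 5, Pparg being lost in all 4 of those fits. Adipoq, the defining gene, was at 0 to 0.220 CPM in TdTomato+ and 0 to 2.09 CPM in TdTomato- samples. Of 8 Schwann and nerve markers 1 fell, with 3, 0, 0 and 0 without pairs 2, 3, 4 and 5 and none with the length trend removed. Of 6 tendon, 9 leukocyte and 4 erythroid and platelet markers none passed edgeR, with 4, 2 and 0 at an unadjusted p under 0.05 and 3 tendon markers past DESeq2. The part of these cells in the fall of pericyte and fibre genes or the rise of collagen genes was not tested. Beside these marker counts, 3.37% of all genes rose and 5.17% fell.

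The effect of the label at 6 weeks was set against the effect in muscle at postnatal day 6 (P6), where 5 matched pairs were sequenced. Of 14077 genes tested for a difference between the 2 effects, 752 (5.34%) passed, 259 (1.84%) with the 6-week effect higher and 493 (3.5%) with it lower. The 6-week muscle libraries stand on another sequencing run sheet than those of P6 muscle, so age and run cannot be told apart. The count was 496, 425 or 376 without 6-week pair 2, 3 or 4, and 434 or 478 without P6 pair 2 or 5. In their own fits, 126 genes were called at both ages, 11.5% of the 1096 called at 6 weeks and tested at P6 and 29.6% of the 426 called at P6 and tested at 6 weeks, and 85 of the 126 had the same sign. The sign was the same for 51.5% of all genes tested at both ages and for 57.8% of those 1096.

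Several arterial genes fell more at 6 weeks. Gja4 had log2 fold changes of -2.0 at 6 weeks and -0.70 at P6, a difference of -1.30 (edgeR adjusted p = 0.000607), and Gja5 had -2.58 at 6 weeks and -1.65 at P6 (difference -0.92, edgeR adjusted p = 0.00919). Hey1 had -1.30 at 6 weeks and -0.01 at P6 (difference -1.29, edgeR adjusted p = 3.45e-05). Of 24 arterial genes, 7 had a lower and 4 a higher effect at 6 weeks. The 4 include Slc45a3, with -0.22 at 6 weeks and -3.03 at P6 (difference 2.82, edgeR adjusted p = 0.000931), larger in size than the 3 arterial differences above. Of 20 venous genes, 4 had a higher and 1 a lower effect. Selp had 2.01 at 6 weeks and 0.77 at P6 (difference 1.23, edgeR adjusted p = 0.00125) and Vwf had 1.09 at 6 weeks and 0.16 at P6 (difference 0.93, edgeR adjusted p = 0.00127), whereas Lrg1, with 1.56 at 6 weeks and 1.91 at P6, and Ackr1, with 1.47 at 6 weeks and 1.42 at P6, did not pass for a difference. Rbp7 changed sign, with -1.30 at 6 weeks and 0.51 at P6 (difference -1.81, edgeR adjusted p = 7.98e-05). Of 19 capillary genes, 12 had a lower and 1 a higher effect at 6 weeks. Of 31 interferon response genes, 13 had a lower effect and none a higher one by edgeR. Over all genes, 3.5% had a lower and 1.84% a higher effect. The Spearman correlation of log2 fold change with gene length was 0.41 in 6-week muscle and -0.10 in P6 muscle. With the length trend removed, 413 genes passed for a difference, and the part of length in these list counts was not tested.

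Of the 8 largest differences by the naming rule, which asks for a mean of at least 10 CPM, 7 were of genes called at P6 in its own fit, the exception being Bub1. Glycam1 and Madcam1 encode ligands for lymphocyte homing receptors of specialised venules. Glycam1 had medians of 4.92 CPM in TdTomato+ and 12.6 CPM in TdTomato- samples at 6 weeks, and 247 CPM in TdTomato+ and 12.7 CPM in TdTomato- samples at P6, all scaled over the libraries of both ages. The log2 fold changes were -1.30 at 6 weeks (edgeR adjusted p = 0.399) and 4.15 at P6 (edgeR adjusted p = 8.76e-06), a difference of -5.41 (0.00271). Madcam1 differed by -3.01 and Ubd, a ubiquitin-like modifier, by -5.0. The genes Prox1, the master regulator of lymphatic endothelium, and Mmrn1, a lymphatic marker, differed by 2.47 and 2.90, with Mmrn1 at a log2 fold change of 0.10 at 6 weeks and -2.80 at P6. Prox1 did not pass with the length trend removed (edgeR adjusted p = 0.0636), without 6-week pair 2, 3 or 4, or without P6 pair 1, 2 or 4. Fgl2 and the arterial list gene Slc45a3 differed by 2.33 and 2.82. Bub1, a mitotic checkpoint kinase, had no count in any of the 4 TdTomato+ libraries and 0 to 18 counts in TdTomato- libraries at 6 weeks, against 443 to 720 counts in TdTomato+ and 428 to 594 counts in TdTomato- libraries at P6, so its fitted difference depends on the prior count and no fold is given. Bub1 did not pass without 6-week pair 3 or 4.

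Against 6-week heart, with 5 matched pairs, 284 of 13853 genes (2.05%) differed in effect, 109 (0.787%) with the muscle effect higher and 175 (1.26%) with it lower. This comparison uses the same 6-week muscle libraries as the one by age. The count was 12 without muscle pair 2, 94 without muscle pair 5 and 0 by edgeR without muscle pair 3 (2097 genes at an unadjusted p under 0.05) or 4 (2009). It was 71, 132, 32, 512 and 70 without heart pairs 1, 2, 4, 5 and 6 in turn, and 46 with the length trend removed. Of the heart pairs, 5 and 6 were on the run sheet of the muscle libraries and the other 3 on another, and without pairs 5 and 6, whose tissue field reads muscle although their names say heart, the count was 348. In its own fit, 6-week heart had 19 calls, of which 11 were also called in 6-week muscle (57.9% of the heart calls and 1.01% of the muscle calls), all 11 with the same sign. The sign was the same for 48.6% of all genes tested in both tissues and for 52.5% of the muscle calls among them.

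Several arterial genes fell more in muscle than in heart. Gja4 had a log2 fold change of -2.0 in muscle and -0.36 in heart (difference -1.62, edgeR adjusted p = 0.0154) and Gja5 had -2.58 in muscle and -1.04 in heart (difference -1.53, edgeR adjusted p = 0.0154). Of 24 arterial genes, 7 had a lower and 1 a higher effect in muscle. Of 20 venous genes, 4 had a higher effect in muscle and none a lower one by edgeR. They included Nrp2, with a difference of 0.81 (edgeR adjusted p = 0.0180), and Ephb4, with 0.60 (0.0246). Over all genes, 0.787% had a higher and 1.26% a lower effect in muscle. Selp, at 2.01 in muscle and 2.40 in heart, and Lrg1, at 1.56 in muscle and 1.41 in heart, did not pass for a difference (edgeR adjusted p = 0.735 and 0.765), with SEs of 0.43 and 0.22 for the differences of -0.36 and 0.17. Slc7a5 and Gper1 differed by 1.5 and -1.96. Nov, a matricellular protein, had a log2 fold change of 1.36 in muscle and -0.15 in heart (difference 1.51, edgeR adjusted p = 0.0346), and Flrt2 and Sned1 differed by 1.38 and 1.28. The lower effects in muscle that the naming rule picks were those of Postn, Aspn, Gucy1a3 and Ndufa4l2. Postn, a matrix protein, had medians of 7.80 CPM in TdTomato+ and 15.2 CPM in TdTomato- muscle, and 34.7 CPM in TdTomato+ and 7.45 CPM in TdTomato- heart (difference -3.59, edgeR adjusted p = 0.0154), and Aspn, Gucy1a3 and Ndufa4l2 differed by -3.92, -3.56 and -3.48. The exons of Ndufa4l2 overlap those of Shmt2. Of the 8 genes the rule picks here, Postn alone passed with the length trend removed (edgeR adjusted p = 0.0228), the other 7 having adjusted p between 0.0555 and 0.0909. No difference from heart named here passed without muscle pair 3 or without muscle pair 4, where no gene of the table did by edgeR.

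The authors' deposited table of the same comparison lists 33 genes at a false discovery rate below 0.05, 4 higher and 29 lower in TdTomato+, and 21 of them were called here. In the authors' deposited table Gja5 has a log2 fold change of -2.59 and Gja4 of -2.05, and all 1101 genes called here have the same sign there. Both are of the same libraries, so the shared sign is no independent check. Other genes described above did not pass there, among them Selp (edgeR false discovery rate 0.889), Lrg1 (0.927), Plvap (0.101), Vwf (0.965), Hey1 (0.353) and Rbp7 (0.594).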

How the data were processed

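Poly(A) RNA of sorted endothelial cells was sequenced. Reads were aligned with STAR to mm10 and assigned to genes with featureCounts, per the submitters' processing notes. The notes hold no versions, and the sources used here do not give the strand setting. The library kit differs between the labels and the run sheet. The values used are the deposited raw counts per gene, of 15569 listed genes. The RIN is a score from the authors' run sheet, on which 2 entries of other samples were not used. Mapping statistics are the authors' deposited values. The log2 fold changes and FDR values (adjusted p-values) of the authors' deposited table come from edgeR, per the submitters' processing notes, with no stated design.

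Counts of the 8 libraries (18334873 to 24010921 each) were tested with edgeR 4.0.16 in R 4.3.3: filterByExpr, TMM scaling and the quasi-likelihood test, with the pair number as a block and Benjamini-Hochberg adjustment over all 12891 genes tested. An adjusted p below 0.05 was called. The SE is the absolute log2 fold change over the root of its F statistic. CPM are scaled by TMM within each fit. Samples of the same number deviated together (correlations of 0.58, 0.57, 0.42 and 0.74 over 8893 genes), so the numbers were taken as pairs. The highest correlation with a sample of another number was -0.14 for pairs 2 and 5 and 0.41 for pairs 3 and 4. Pair 4 was thus barely closer to its partner than to a sample of another number. No 2 libraries held identical counts. Differences between effects were interaction terms in fits of 2 combinations. The fit was also run on simulated counts with known changes in some genes, and the outcome is not reported here. Those counts held no difference in RIN, length trend or cell content between the fractions, so that run is no check of them.

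Named genes are Abcg2, the 10 largest rises and falls among calls with a mean of at least 10 CPM and 1 sign in 4 pairs, up to 3 calls with the smallest p per list, and 4 genes per direction of each difference; 1 gene that met the rule is not reported here. The 41 gene lists and the members were chosen with earlier results of these data known. Promoters were matched by symbol. Alternatives were other scalings and filters, DESeq2 1.42.0, no block, a joint fit of 46 libraries, RIN as a covariate, each pair left out and, added after seeing the data, removal of a per-library trend on gene length. The joint fit left out both libraries of P1 heart pair 1.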

Additional observations from a re-analysis of the deposited data

Results flagged for a closer look

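In groups of 4 libraries, 17 of 226 checks found 1 library standing apart from the other 3; chance alone marks about 1 group in 20. TdTomato+ sample 2 stood high for Aif1l (10.0 CPM), S100a10 (248 CPM) and Car3 (14.2 CPM) and low for Slc38a2 (139.7 CPM). TdTomato+ sample 5 stood high for Slc45a4 (17.8 CPM) and Abca1 (134 CPM) and low for Aplnr (908 CPM) and Rtp4 (71.9 CPM). TdTomato- sample 2 stood high for Ckm (35.3 CPM) and Pparg (420.5 CPM) and low for Vwf (109.6 CPM), Nrp2 (121 CPM) and Hspg2 (173 CPM). TdTomato- sample 5 stood high for Ctgf (80.7 CPM) and low for Ndufb9 (99.7 CPM). The summed satellite cell markers stood high in TdTomato+ sample 4 (537 CPM) and in TdTomato- sample 2 (359.5 CPM).

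The effect of the label differed between 6-week and P6 muscle, by the test of the difference itself, for 752 genes. Among the named genes the difference in log2 fold change, 6 weeks minus P6, was 1.23 for Selp, -0.92 for Gja5, -1.30 for Gja4, -1.25 for Col8a1, -1.08 for Fbln5, -2.08 for Ckm and -0.72 for Stmn2. It was 2.90 for Mmrn1, 2.82 for Slc45a3, 2.47 for Prox1, 2.33 for Fgl2, -5.41 for Glycam1, -5.0 for Ubd and -3.01 for Madcam1. The fitted value for Bub1 was -5.88, which is no measure of size because no TdTomato+ library at 6 weeks had a count.

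The effect also differed between 6-week muscle and 6-week heart for 284 genes. That count was 12 without muscle pair 2, 46 with the length trend removed, and 0 by edgeR without muscle pair 3 (2097 genes at an unadjusted p under 0.05) or 4 (2009). The difference, muscle minus heart, was 1.5 for Slc7a5, -1.96 for Gper1, -1.53 for Gja5, -1.62 for Gja4, -1.36 for Col8a1 and -1.23 for Stmn2. It was 1.51 for Nov, 1.38 for Flrt2, 1.28 for Sned1, -3.92 for Aspn, -3.59 for Postn, -3.56 for Gucy1a3 and -3.48 for Ndufa4l2.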

How the results depend on the processing

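The numbers pair the samples, and the fit without the replicate block called 69 genes in 6-week muscle, 91 for the difference from P6 muscle and 0 for the difference from 6-week heart (1492 at an unadjusted p under 0.05). DESeq2 called 1660, 1325 and 1035 in that order, and removal of the length trend left 577, 413 and 46. RIN as a covariate left 1 of the 1101 calls (778 at an unadjusted p under 0.05), and the joint fit of 46 libraries left 244 calls for the difference from P6 muscle. With 1 pair left out the counts ran from 262 to 850 in 6-week muscle, from 376 to 756 for the difference from P6 muscle and from 0 to 512 for the difference from 6-week heart. Abcg2 passed at 0.22 with the filter at a mean of 10 CPM and at 0.24 with DESeq2, and in no other setting. Of 106 named genes, the call was lost without the block for 86, in the joint fit for 27, with the length trend removed for 21, with relative log expression scaling for 1 (Pparg), and without pair 2, 3, 4 or 5 for 7, 44, 27 or 18. With the RIN covariate all 106 lost their call and 19 changed sign: Slc7a5 -0.16, Tmem178 0.13, Col8a1 0.13, Aif1l 0.81, Slc45a4 0.28, Vcam1 -0.16, Prom1 0.11, Myc -0.044, Slco2a1 -0.26, Plat 0.41, Ctgf -0.084, Hspa1a -0.11, Bnip3 0.054, Ankrd37 0.46, Map3k6 -0.16, Bhlhe40 -0.48, Calcr -0.90, Pmp22 0.078 and Sema3g 0.17 on the log2 scale, with adjusted p between 0.948 and 0.999. The fits without pairing keep the degrees of freedom of 8 separate samples, and RIN differs between the fractions without overlap, so its effect and that of the label cannot be told apart. The cause of the other shifts was not tested.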

Other observations

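Outside the gene lists, genes picked here after their values were seen included several with small errors. Rasa4, which encodes a GTPase-activating protein of Ras, rose by 1.14 ± 0.07 on the log2 scale (SE, 4 pairs, edgeR adjusted p = 6.47e-05). Ehd4, a membrane trafficking gene, rose by 1.04 ± 0.09 (edgeR adjusted p = 0.000317), Lhx6, a LIM homeobox gene, by 0.94 ± 0.08 (0.000226) and Fmo2, a flavin monooxygenase gene, by 0.85 ± 0.09 (0.000808). Igfbp4, a binding protein for insulin-like growth factors, had mean levels of 139.6 CPM in TdTomato+ and 311 CPM in TdTomato- samples, with a log2 fold change of -1.18 ± 0.08 (edgeR adjusted p = 8.8e-05). Alpl, the tissue non-specific alkaline phosphatase, had -1.61 ± 0.13 (edgeR adjusted p = 0.000192), and Bsg, a companion of monocarboxylate transporters, had -0.79 ± 0.08 (edgeR adjusted p = 0.000831). Clu, a secreted chaperone, averaged 117 CPM in TdTomato+ and 252 CPM in TdTomato- samples (log2 fold change -1.18 ± 0.15, edgeR adjusted p = 0.00211).

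Sex-linked genes separated the pairs and not the fractions. Xist was at 67.8 CPM in TdTomato+ sample 5 and 57.9 CPM in TdTomato- sample 5, and at 2.17 CPM or less in the other 6 libraries. Ddx3y was at 0.0895 CPM in TdTomato+ sample 5 and 0.0479 CPM in TdTomato- sample 5, and at 74.7 to 90.3 CPM in the other 6 libraries.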
